A study of Mus musculus with 54 samples.

Results

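The liver makes fatty acids from sugar-derived carbon and stores them as triglyceride, and 35 genes for those steps were followed here through the day in mice with and without the clock gene Bmal1. The genes were taken as a named list of enzymes, transcription factors and droplet proteins, drawn up with earlier results of these data known, and all 35 were present among the 24346 gene symbols of the expression table. Each of the 35 reached a mean of at least 1 FPKM (fragments scaled to transcript length and to the mapped fragments of a library) in at least 1 group, so all were among the 10932 genes tested.

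Fatty acid synthesis starts when citrate leaves the mitochondrion and is cleaved to acetyl-CoA, which acetyl-CoA carboxylase turns into malonyl-CoA and fatty acid synthase extends to palmitate with NADPH as the reductant. Elongases and desaturases then modify the chain, and acyl-CoA is attached stepwise to glycerol phosphate until diacylglycerol acyltransferases complete the triglyceride, which is held in lipid droplets. In liver the pathway is known to be driven after feeding by SREBP-1, the product of Srebf1, downstream of insulin, and by ChREBP, the product of Mlxipl, downstream of glucose.

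Whole liver RNA was sequenced from 3 groups of mice at zeitgeber times (hours after lights on) ZT0, ZT4, ZT8, ZT12, ZT16 and ZT20, with 3 livers per genotype and time and 54 libraries in all. RE mice carried a Bmal1 gene blocked by a floxed STOP, which Syt10-Cre was meant to remove in the central clock of the brain, the suprachiasmatic nucleus, so that the liver would stay without Bmal1. KO mice carried the same blocked gene with no rescue, and WT mice had Bmal1 in every tissue. The rescue thus rests on where the Syt10 promoter drives Cre, and no source used here states the age, sex, feeding or lighting of the animals. Setting RE against KO asks which rhythms and levels in liver go with the rescue in the brain. Setting RE against WT asks which go with Bmal1 outside the central clock. WT mice had it in every tissue, and RE mice were meant to have it only where Cre removed the STOP. A difference between RE and WT therefore cannot be assigned to the clock of the liver rather than to that of other tissues.

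Summed FPKM ran from 572995 to 751399 per library, with no identical libraries. Arntl, the symbol of Bmal1, lay between 7.60 and 15.5 FPKM in RE livers, between 9.76 and 14.2 in KO livers and between 0.202 and 10.3 in WT livers. That value is for the gene as a whole and checks neither the STOP nor the protein, so the genotypes rest on the labels. Dbp, a direct target of BMAL1, lay between 0.849 and 2.42 FPKM in RE livers, 0.925 and 2.97 in KO livers and 0.508 and 79.7 in WT livers. Of 8 hepatocyte markers, 7 were abundant in every genotype. The other, Alb, was listed at 0 in all WT libraries and in at least 1 library of RE and of KO, so no value of it was used. In bulk liver, fewer cells of a type and less RNA per cell cannot be told apart.

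In RE livers 26 of the 35 genes cycled over the day, and in 16 of the 35 the rhythm differed between RE and WT livers. A 24 h rhythm was called (adjusted p under 0.05, limma's moderated F test) in 26 of 35 genes in RE, where 46.8% of all tested genes were called. In KO the count was 0 of 35, with 3 at an unadjusted p under 0.05, where 0.0366% of all tested genes were called and 1301 of 10932 lay under that unadjusted p. In WT it was 18 of 35, where 34.8% of all tested genes were called. The median amplitude, from daily mean to peak on the log2 scale, was 0.46 in RE, 0.16 in KO and 0.39 in WT for the 35 genes, and 0.16 in RE, 0.08 in KO and 0.14 in WT for all tested genes. Rhythms were called in RE and WT alike for 11 genes, in RE and not in WT for 15, in WT and not in RE for 7, and in neither for Nr1h3 and Me1, a count of 2. Over all 10932 tested genes, 5116 were called in RE and 3801 in WT, of which 2233 were called in both. Such counts do not show that a gene differed between genotypes, which the rhythm difference tests. In the fit all genotypes shared a variance per gene. The median SD within a group was 0.422 (log2) in RE and 0.255 in WT for the 35 genes. With library weights, 29 of the 35 were called in WT. In RE no alternative gave more than 28. The higher count in RE thus depends on the processing. A gene not called in WT, here or below, may still cycle there. Whether the unequal spread is the cause was not tested.

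In RE, 20 of the 26 called genes peaked between ZT20 and ZT4, the end of the night and the start of the day, against 28.9% of all 5116 called genes. In WT, 9 of the 18 called genes peaked between ZT10 and ZT16, around dusk, against 24.2% of all 3801 called genes, and 6 peaked between ZT20 and ZT4, against 32.1%. These windows were chosen after the peaks were seen, and the shares describe the genes without a test. The 6 called genes of RE that peaked elsewhere were Elovl5, Dgat1, Cidec, Plin5, Plin4 and Lpin1, with peaks between ZT5.51 and ZT13.5. Among the 11 genes called in both genotypes, the peaks lay within 3 h of each other in 4, Elovl1, Acsl3, Acsl5 and Lpin1, and more than 6 h apart in 5, Srebf1, Aacs, Elovl6, Fads2 and Plin5. Over all 2233 genes called in both, 66.9% were within 3 h and 10.6% more than 6 h apart.

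**Figure D1:**
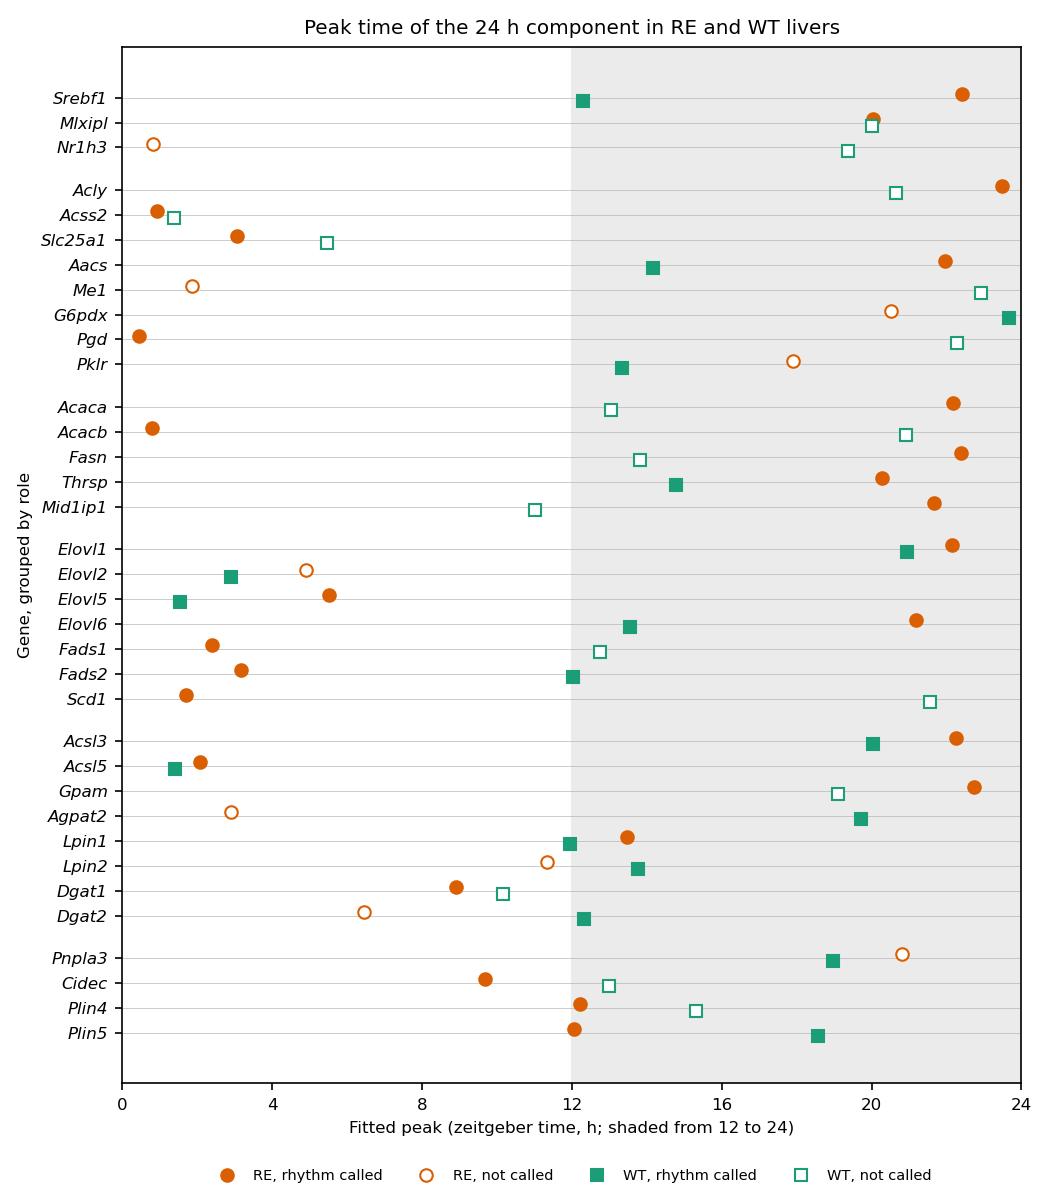
Fitted peak time (x axis, zeitgeber time in h, 12 to 24 shaded) of the 24 h component for each of the 35 genes (y axis, grouped by role) in RE (circles) and WT (squares); filled symbols are genes with a called rhythm. In RE, 20 of 26 filled circles lie between ZT20 and ZT4, while 9 of 18 filled squares lie between ZT10 and ZT16.

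The rhythm itself, as amplitude and timing in 1 test, differed between RE and WT in 16 of 35 genes, where 14.1% of all tested genes were called. The median size of that difference was 0.49 (log2) over the 35 genes and 0.16 over all tested genes. By role, it was called in 1 of 3 transcription factors, 2 of 8 genes of acetyl-CoA and NADPH supply, 5 of 5 of fatty acid synthesis and its control, 4 of 7 of elongation and desaturation, 3 of 8 of acyl activation and triglyceride assembly, and 1 of 4 droplet genes. Leaving out each of the 54 libraries in turn kept 15 of the 16 calls. The exception was Gpam, whose adjusted p of 0.0215 became 0.0580 without liver 0 of RE at ZT0. When all differences between the 6 times were tested in place of the 24 h wave, 10 of the 16 kept their calls, and Acly, Aacs, Acaca, Acacb, Elovl5 and Gpam did not (adjusted p 0.0695, 0.0668, 0.0800, 0.106, 0.0983 and 0.0715). Livers are numbered 0, 1 and 2 within a group, as in the table's column names.

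Some of the genes that cycled in RE are shown by the 250 bases before a RefSeq transcription start, because most of them peaked within a few hours of each other. Srebf1, Fasn, Gpam and Slc25a1 peaked in RE between ZT22.4 and ZT3.06, and Elovl5 is given as the gene that peaked later, at ZT5.51. RefSeq windows on GRCm38.p6, the build also named mm10, were matched by symbol for 31 of 35 genes. Capitals mark CCAAT, the box bound by NF-Y, a known partner of SREBP, and CACGTG, an E-box that CLOCK and BMAL1, USF and ChREBP can bind, each on either strand, so that CCAAT also reads ATTGG. The windows are chr11:60220628-60220877 on the minus strand for the second of 3 annotated starts of Srebf1, chr11:120824548-120824797 on the minus strand for Fasn, chr19:55127239-55127488 on the minus strand for the first of 2 starts of Gpam, chr16:17928220-17928469 on the minus strand for Slc25a1 and chr9:77917115-77917364 on the plus strand for Elovl5. They are printed 5′ to 3′ on the strand of the gene.
Srebf1: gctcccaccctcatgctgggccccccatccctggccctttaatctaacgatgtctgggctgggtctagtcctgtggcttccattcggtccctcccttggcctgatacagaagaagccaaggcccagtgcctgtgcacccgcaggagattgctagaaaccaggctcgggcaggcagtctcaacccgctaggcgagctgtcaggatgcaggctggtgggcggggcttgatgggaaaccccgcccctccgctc
Fasn: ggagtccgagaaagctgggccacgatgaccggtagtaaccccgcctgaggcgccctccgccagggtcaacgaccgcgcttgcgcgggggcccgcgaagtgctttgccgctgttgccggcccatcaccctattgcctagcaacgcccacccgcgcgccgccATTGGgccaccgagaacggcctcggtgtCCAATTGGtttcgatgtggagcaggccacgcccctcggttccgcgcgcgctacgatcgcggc
Gpam: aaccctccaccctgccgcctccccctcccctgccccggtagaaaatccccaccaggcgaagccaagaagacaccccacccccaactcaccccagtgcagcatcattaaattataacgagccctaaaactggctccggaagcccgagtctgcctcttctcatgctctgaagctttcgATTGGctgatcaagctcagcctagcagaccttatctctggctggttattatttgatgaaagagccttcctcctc
Slc25a1: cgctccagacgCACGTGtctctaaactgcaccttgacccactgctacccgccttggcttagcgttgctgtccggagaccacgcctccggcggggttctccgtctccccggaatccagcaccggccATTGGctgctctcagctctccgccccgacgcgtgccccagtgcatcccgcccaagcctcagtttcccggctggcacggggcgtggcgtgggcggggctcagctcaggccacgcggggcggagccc
Elovl5: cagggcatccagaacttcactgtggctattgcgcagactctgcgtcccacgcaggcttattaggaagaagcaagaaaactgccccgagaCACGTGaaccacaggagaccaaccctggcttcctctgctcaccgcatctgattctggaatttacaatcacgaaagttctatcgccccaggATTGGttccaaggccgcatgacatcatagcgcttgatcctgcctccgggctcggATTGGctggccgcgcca
In these windows Fasn held 3 CCAAT boxes, of which 2 overlap, Elovl5 held 2, Gpam and Slc25a1 held 1 each, and the printed Srebf1 window held neither motif, while those of the other 2 Srebf1 starts held 1 CCAAT each. An E-box stood in the windows of Slc25a1 and Elovl5. Over all windows of the 31 genes, 19 genes had a CCAAT in at least 1 window, against 37.5% of 27025 genes with such windows. CACGTG was found in 4 of the 31 genes, Elovl5, Lpin2, Mlxipl and Slc25a1, against 6.86% of genes. The sterol element letters TCACNCCAC were found in 1, Mlxipl, against 1.22%. The 31 genes had 45 windows and the 27025 genes had 32851, which is fewer per gene. A gene with more windows has more chances of a match, so these shares are not fully comparable. Of all windows, 33.8% held a CCAAT. A match is a run of letters in this window and no more, and a window without it says nothing about the factor.

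Among the transcription factors, Srebf1 ran almost opposite to WT in RE livers. In RE it had 95.7, 106 and 87.3 FPKM at ZT0 and 28.8, 25.4 and 31.2 at ZT12. In KO the values were 73.9, 93.4 and 59.3 FPKM at ZT0 and 38.5, 69.0 and 71.5 at ZT12, and in WT they were 97.3, 64.1 and 67.2 at ZT0 and 113, 118 and 156 at ZT12. All 3 RE livers lay below all 3 KO and all 3 WT livers at ZT12, whereas the genotypes overlapped at ZT0. The fitted peak was ZT22.4 in RE with an amplitude of 0.91 (log2, SE 0.16, adjusted p 0.000117) and ZT12.3 in WT with an amplitude of 0.48 (SE 0.16, adjusted p 0.0476). The peaks were 10.1 h apart (SE 1.43), and the rhythm difference measured 1.35 (log2, SE 0.23, adjusted p 0.000183). The WT rhythm of Srebf1 stood at the threshold: it lost the call in 32 of 54 leave-one-out fits, with adjusted p up to 0.124, while the difference from RE kept its call in all 54.

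Mlxipl varied less. It had 41.7, 49.1 and 91.2 FPKM in RE livers at ZT16 and 42.2, 32.4 and 32.4 at ZT8, against 65.2, 61.2 and 48.8 at ZT16 and 45.4, 54.4 and 46.9 at ZT8 in WT livers. Liver 2 of RE at ZT16 stood far above the other RE livers. Its RE rhythm was called with an amplitude of 0.25 (adjusted p 0.0409) and lost the call in 11 of 54 leave-one-out fits, with adjusted p up to 0.111, and in a fit of the RE libraries alone (adjusted p 0.175). The fitted peaks were ZT20.0 in RE and in WT, where the rhythm was not called (adjusted p 0.2), and the rhythm difference was 0.07 (adjusted p 0.91). Nr1h3, which encodes the oxysterol receptor LXR alpha, ranged from 51.7 to 87.4 FPKM in RE livers, from 52.7 to 74.2 in KO livers and from 60.4 to 75.1 in WT livers, and no test of it passed.

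**Figure D2:**
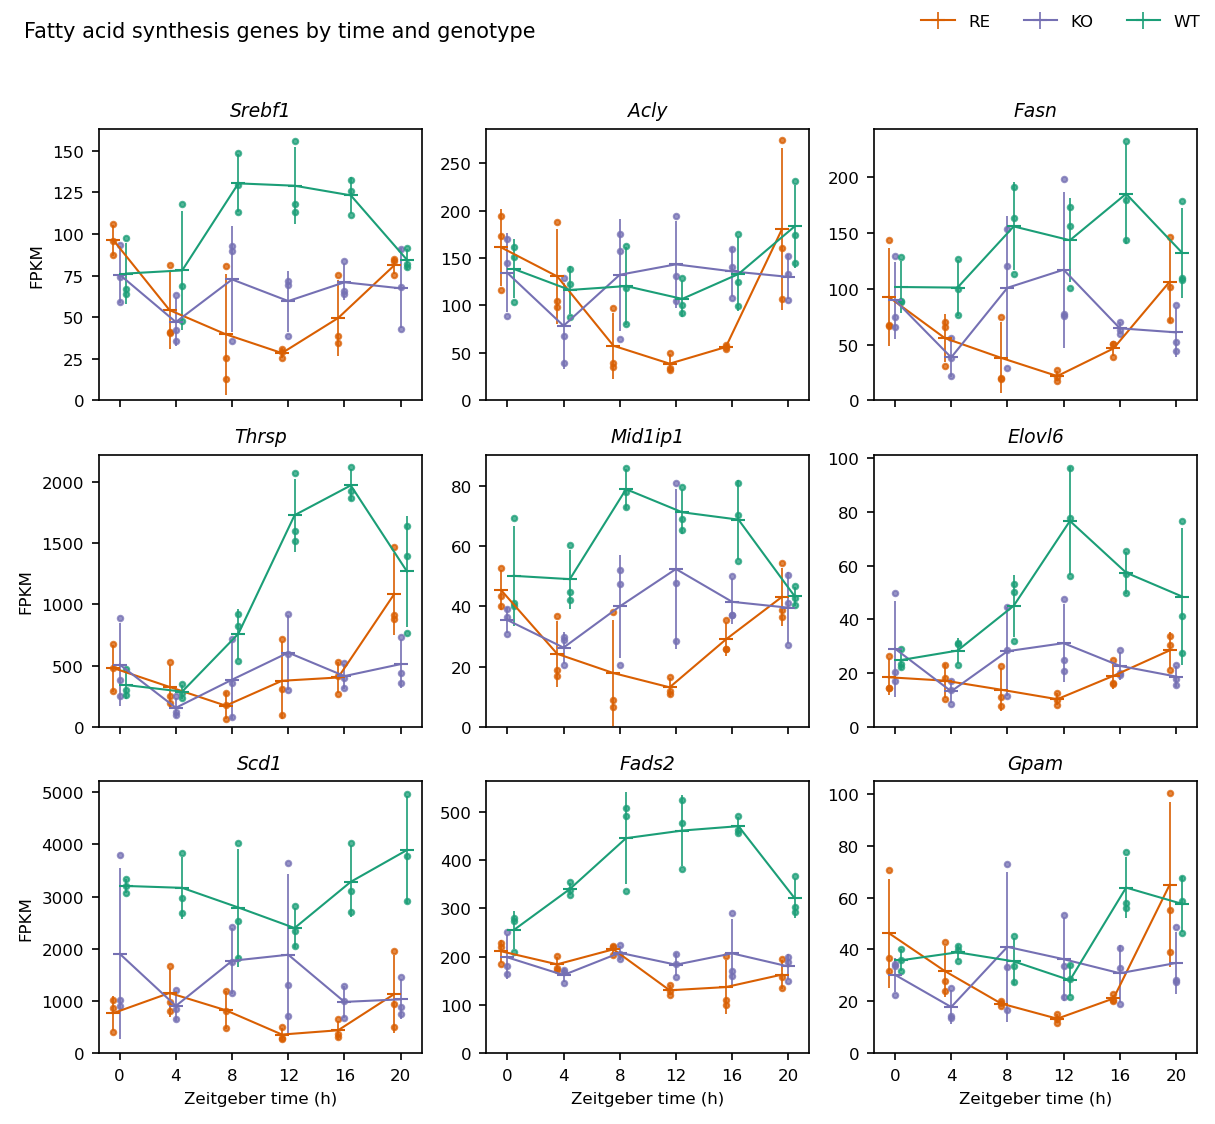
FPKM (y axes, linear from 0) against zeitgeber time in h (x axes) for 9 genes in RE, KO and WT livers; dots are single livers, dashes joined by lines are means of 3 livers and bars are ± SD. RE means of Srebf1, Acly, Fasn, Mid1ip1, Elovl6, Scd1, Fads2 and Gpam are lowest at ZT12, while Srebf1, Thrsp, Mid1ip1, Elovl6 and Fads2 have their WT maxima between ZT8 and ZT16.

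Of the genes that supply acetyl-CoA and NADPH, 5 of 8 cycled in RE and 3 of 8 in WT. Of all tested genes, 46.8% were called in RE and 34.8% in WT, so the WT count lay near that share. Acly, ATP citrate lyase, releases acetyl-CoA from citrate in the cytosol. It had 274, 161 and 106 FPKM in RE livers at ZT20 and 32.1, 50.1 and 33.8 at ZT12, against 174, 231 and 145 at ZT20 and 91.6, 129 and 101 at ZT12 in WT livers. RE and WT overlapped at ZT20 and did not at ZT12. The RE amplitude was 1.16 (SE 0.16, adjusted p 4.15e-06, peak ZT23.5), the WT amplitude 0.31 (adjusted p 0.27), and the rhythm difference 0.95 (SE 0.22, adjusted p 0.00874). Aacs, which makes acetoacetyl-CoA from ketone carbon, was called in both genotypes and peaked 7.80 h later in RE (SE 1.54), at ZT21.96 in RE and ZT14.2 in WT. It had 48.95, 66.7 and 46.4 FPKM in RE livers at ZT20 and 65.5, 22.7 and 13.9 at ZT16, against 34.2, 68.2 and 40.2 at ZT20 and 69.8, 85.0 and 102 at ZT16 in WT livers. Liver 0 of RE at ZT16 stood far above the other 2 of its group and still below the WT livers. The RE rhythm of Aacs was not called in a fit of the RE libraries alone (adjusted p 0.0716). Its WT call was lost in 4 leave-one-out fits, without liver 0 of WT at ZT0 or ZT4, liver 1 at ZT12 or liver 2 at ZT16 (adjusted p 0.0528 to 0.0677).

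Slc25a1, the mitochondrial citrate carrier, had 250, 195 and 147 FPKM in RE livers at ZT8 and 130, 115 and 106 at ZT16, against 198, 226 and 190 at ZT8 and 151, 149 and 172 at ZT16 in WT livers. Every RE liver lay below every WT liver at ZT16, though the difference at ZT16 was not called. Its rhythm was called in RE (0.41, SE 0.07, adjusted p 6.04e-05), not in WT (0.14, adjusted p 0.262), and the difference did not pass (adjusted p 0.0633). Acss2, acetyl-CoA synthetase, and Pgd, of the pentose phosphate pathway, also had called rhythms in RE, with amplitudes of 0.87 and 0.59 and peaks at ZT0.927 and ZT0.449. Their WT amplitudes were 0.38 and 0.26 and were not called, and their rhythm differences of 0.49 and 0.39 did not pass (adjusted p 0.332 and 0.151). G6pdx, the entry enzyme of the pentose phosphate pathway, and Pklr, liver pyruvate kinase, were called in WT and not in RE, with amplitudes of 0.48 and 0.47, and their differences between RE and WT did not pass either (adjusted p 0.179 and 0.267). The WT call of Pklr was lost in 5 leave-one-out fits, without liver 1 of WT at ZT0, liver 0 at ZT4, liver 1 or 2 at ZT12 or liver 2 at ZT16 (adjusted p up to 0.0656).

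Me1, the cytosolic malic enzyme that yields NADPH, was the supply gene whose level differed most. It ranged from 24.7 to 116 FPKM in RE livers with a median of 41.0, from 33.1 to 151 in KO livers with a median of 57.9, and from 68.4 to 257 in WT livers with a median of 122. Most RE livers lay below the lowest WT liver. Its mean level was lower by 1.46 (log2, SE 0.16, adjusted p 7.62e-10) in RE than in WT, which is 0.363 times the WT level, and it was called lower at ZT0, ZT8, ZT12, ZT16 and ZT20.

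The genes of fatty acid synthesis and its control moved together. All 5 had a called rhythm in RE, against 46.8% of all tested genes, with peaks between ZT20.3 and ZT0.791. All 5 differed in rhythm from WT by the 24 h test, against 14.1% of all tested genes. Of them, Fasn, Thrsp and Mid1ip1 also did when all differences between the 6 times were tested. Fasn, fatty acid synthase, had 146, 102 and 71.6 FPKM in RE livers at ZT20 and 17.7, 27.0 and 20.5 at ZT12. In KO livers it had 44.6, 52.4 and 85.7 at ZT20 and 75.7, 77.5 and 198 at ZT12, and in WT livers 110, 179 and 107 at ZT20 and 101, 173 and 156 at ZT12. At ZT12 every RE liver lay below every KO and every WT liver, while at ZT20 RE and WT overlapped. The RE amplitude was 1.06 (SE 0.19, adjusted p 0.000152, peak ZT22.4). In WT it was 0.39 with a fitted peak at ZT13.8 and was not called (adjusted p 0.236). The rhythm difference was 1.34 (SE 0.27, adjusted p 0.00211).

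Acaca and Acacb encode the carboxylases that make malonyl-CoA, of which the Acacb product sits at the mitochondrion. Acaca had 20.8, 21.96 and 16.0 FPKM in RE livers at ZT20 and 6.93, 9.50 and 9.35 at ZT12, against 15.5, 23.0 and 14.9 at ZT20 and 16.2, 21.7 and 21.4 at ZT12 in WT livers. Again RE and WT were apart at ZT12 and overlapped at ZT20. Its rhythm difference was 0.65 (SE 0.16, adjusted p 0.0103), with peaks at ZT22.2 in RE and ZT13.0 in WT, the WT rhythm not being called. Acacb had the larger swing, with 2.53, 4.18 and 3.12 FPKM in RE livers at ZT12 and 26.7, 13.0 and 13.5 at ZT4, against 15.3, 18.3 and 10.8 at ZT12 and 19.8, 16.6 and 14.8 at ZT4 in WT livers. Its RE amplitude was 1.13 (peak ZT0.791), its WT amplitude 0.42 (not called), and the difference 0.97 (SE 0.24, adjusted p 0.0157).

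Thrsp, whose nuclear protein promotes lipogenesis, was the synthesis gene with a called WT rhythm. It had 1468, 910 and 876 FPKM in RE livers at ZT20 and 525, 414 and 268 at ZT16. In KO livers it had 356, 442 and 735 at ZT20 and 398, 523 and 320 at ZT16, and in WT livers 1394, 1643 and 765 at ZT20 and 1867, 1927 and 2118 at ZT16. The 3 WT livers at ZT16 were above every RE and KO liver, and RE and WT overlapped at ZT20. The amplitude was 1.14 in RE and 1.52 in WT, the peak ZT20.3 in RE and ZT14.8 in WT, 5.52 h later in RE (SE 1.03), and the difference 1.78 (SE 0.35, adjusted p 0.00141). Mid1ip1, a relative of Thrsp that acts on acetyl-CoA carboxylase, had 52.8, 43.4 and 40.1 FPKM in RE livers at ZT0 and 38.0, 8.92 and 6.56 at ZT8, against 69.3, 41.0 and 40.2 at ZT0 and 72.9, 77.9 and 86.1 at ZT8 in WT livers. Liver 0 of RE at ZT8 stood above the other 2 of its group and below all 3 WT livers. The rhythm difference was 1.36 (SE 0.21, adjusted p 7.48e-05), with peaks at ZT21.7 in RE and, uncalled, ZT11.0 in WT.

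In elongation and desaturation, 6 of 7 genes cycled in RE and 5 of 7 in WT, against 46.8% and 34.8% of all tested genes. Elovl6, which lengthens palmitate, had 34.0, 30.3 and 21.0 FPKM in RE livers at ZT20 and 8.20, 10.002 and 12.6 at ZT12, against 41.1, 76.8 and 27.6 at ZT20 and 56.1, 77.7 and 96.3 at ZT12 in WT livers. The highest RE liver at ZT12 was far below the lowest WT liver. The peak was ZT21.2 in RE and ZT13.5 in WT, 7.65 h later in RE (SE 1.41), and the difference measured 1.09 (SE 0.23, adjusted p 0.00352). The RE rhythm of Elovl6 lost its call without liver 1 of RE at ZT8 or liver 0 at ZT20 (adjusted p 0.0842 and 0.0560). Fads2 and Fads1, the desaturases of polyunsaturated fatty acids, lie near each other on chromosome 19. Fads2 had 219, 222 and 204 FPKM in RE livers at ZT8 and 142, 120 and 129 at ZT12, against 492, 509 and 336 at ZT8 and 525, 478 and 381 at ZT12 in WT livers. All RE livers at these times were below all WT livers. Its peak was ZT3.15 in RE and ZT12.0 in WT, with an amplitude of 0.36 in RE and 0.44 in WT and a difference of 0.73 (SE 0.11, adjusted p 6.85e-05). Fads1 had 162, 113 and 188 FPKM in RE livers at ZT0 and 82.4, 83.2 and 80.7 at ZT12, against 175, 193 and 173 at ZT0 and 212, 185 and 175 at ZT12 in WT livers. The 3 RE livers at ZT12 lay close together and below all WT livers. Fads1 cycled in RE (0.43, adjusted p 0.00012), not in WT (0.09, adjusted p 0.61), and differed between them by 0.51 (SE 0.11, adjusted p 0.00318).

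Scd1, which puts the first double bond into saturated chains and was the most abundant of the 35 in WT livers, had 1951, 938 and 506 FPKM in RE livers at ZT20 and 276, 293 and 496 at ZT12. In KO livers it had 887, 742 and 1462 at ZT20 and 1297, 718 and 3640 at ZT12, and in WT livers 3781, 4974 and 2922 at ZT20 and 2330, 2816 and 2046 at ZT12. Every RE liver was below every WT liver at both times, and at ZT12 KO livers 0 and 1 lay below the WT livers and KO liver 2 above them. Scd1 cycled in RE (0.71, SE 0.20, adjusted p 0.0132, peak ZT1.69) and not in WT (0.28, adjusted p 0.506), and the rhythm difference did not pass (0.63, adjusted p 0.259). Mouse Scd1 has close relatives among neighbouring genes, so the division of reads between them is uncertain. Elovl5, an elongase of polyunsaturated chains, was called in both and peaked at ZT5.51 in RE and ZT1.55 in WT, with a rhythm difference of 0.57 (SE 0.15, adjusted p 0.0197). Its RE rhythm was not called in a fit of the RE libraries alone (adjusted p 0.0522). Elovl1 and Elovl2, elongases of very long chains, showed no called difference (0.25 and 0.12, adjusted p 0.267 and 0.716). Their WT calls were lost in 13 and 15 of 54 leave-one-out fits, with adjusted p up to 0.107 and 0.124.

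In triglyceride assembly the genes did not follow a shared time. Gpam, which adds the first acyl chain to glycerol phosphate at the mitochondrion, had 101, 55.3 and 39.2 FPKM in RE livers at ZT20 and 13.0, 15.0 and 11.8 at ZT12, against 46.3, 67.6 and 58.8 at ZT20 and 21.7, 34.0 and 28.7 at ZT12 in WT livers. RE lay below WT at ZT12 and overlapped with it at ZT20. Its amplitude was 0.96 in RE (peak ZT22.7) and 0.42 in WT (fitted peak ZT19.1, not called), with a difference of 0.79 (SE 0.21, adjusted p 0.0215). Agpat2, which adds the second acyl chain, had 227, 217 and 271 FPKM in RE livers at ZT20 and 274, 245 and 191 at ZT8, against 302, 289 and 241 at ZT20 and 158, 182 and 165 at ZT8 in WT livers. The RE values were alike at both times, and the WT values did not overlap between them. Its amplitude was 0.07 in RE (not called, adjusted p 0.493) and 0.40 in WT (adjusted p 2.53e-07, peak ZT19.7), and the difference was 0.42 (SE 0.07, adjusted p 0.000155).

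Dgat2, a diacylglycerol acyltransferase that completes triglyceride, showed the same contrast. It had 164, 218 and 179 FPKM in RE livers at ZT12 and 185, 172 and 201 at ZT0, and 186, 224 and 226 at ZT12 and 186, 198 and 237 at ZT0 in KO livers. In WT livers it had 365, 323 and 358 at ZT12 and 230, 184 and 211 at ZT0. The WT livers at ZT12 were above every RE and KO liver. Its amplitude was 0.07 in RE (adjusted p 0.386) and 0.36 in WT (adjusted p 8.12e-07, peak ZT12.3), with a difference of 0.36 (SE 0.07, adjusted p 0.000632). Dgat1, the other diacylglycerol acyltransferase, had a small called rhythm in RE (0.25, peak ZT8.90) and none called in WT (0.11, fitted peak ZT10.2). Their difference did not pass (adjusted p 0.395).

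Lpin1, a phosphatidate phosphatase whose product is diacylglycerol, peaked at a like time in RE and WT. It had 13.8, 100 and 31.1 FPKM in RE livers at ZT12 and 9.51, 5.63 and 5.0 at ZT4, and 20.2, 8.66 and 15.0 at ZT12 and 8.61, 5.75 and 7.31 at ZT4 in KO livers. In WT livers it had 64.9, 69.5 and 62.9 at ZT12 and 8.98, 8.87 and 8.86 at ZT4. The WT livers agreed closely at each time, and the RE livers at ZT12 did not. At ZT8 the RE livers read 5.80, 6.77 and 123 FPKM. The peak was ZT13.5 in RE and ZT12.0 in WT, 1.52 h apart (SE 1.17), and the amplitude 1.12 in RE (adjusted p 0.00319) and 1.38 in WT (adjusted p 0.000421). In a fit of the RE libraries alone the RE rhythm was not called (adjusted p 0.0682). The rhythm difference did not pass with all livers (0.55, adjusted p 0.548) and did without liver 2 of RE at ZT8 (1.01, adjusted p 0.0468). Lpin2, its relative, was called in WT (0.47, peak ZT13.8) and not in RE (0.26), with no called difference (adjusted p 0.537). Its WT call was lost without liver 2 of WT at ZT0, liver 1 at ZT4, liver 0 at ZT12 or liver 0 at ZT16 (adjusted p 0.0594 to 0.0828). Acsl5 and Acsl3, which activate fatty acids to acyl-CoA, were called in both genotypes, with peaks at ZT2.07 in RE and ZT1.41 in WT for Acsl5 and ZT22.3 in RE and ZT20.0 in WT for Acsl3, and no called difference. The WT call of Acsl3 was lost without liver 2 of WT at ZT8 or at ZT20 (adjusted p 0.103 and 0.0502).

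**Figure D3:**
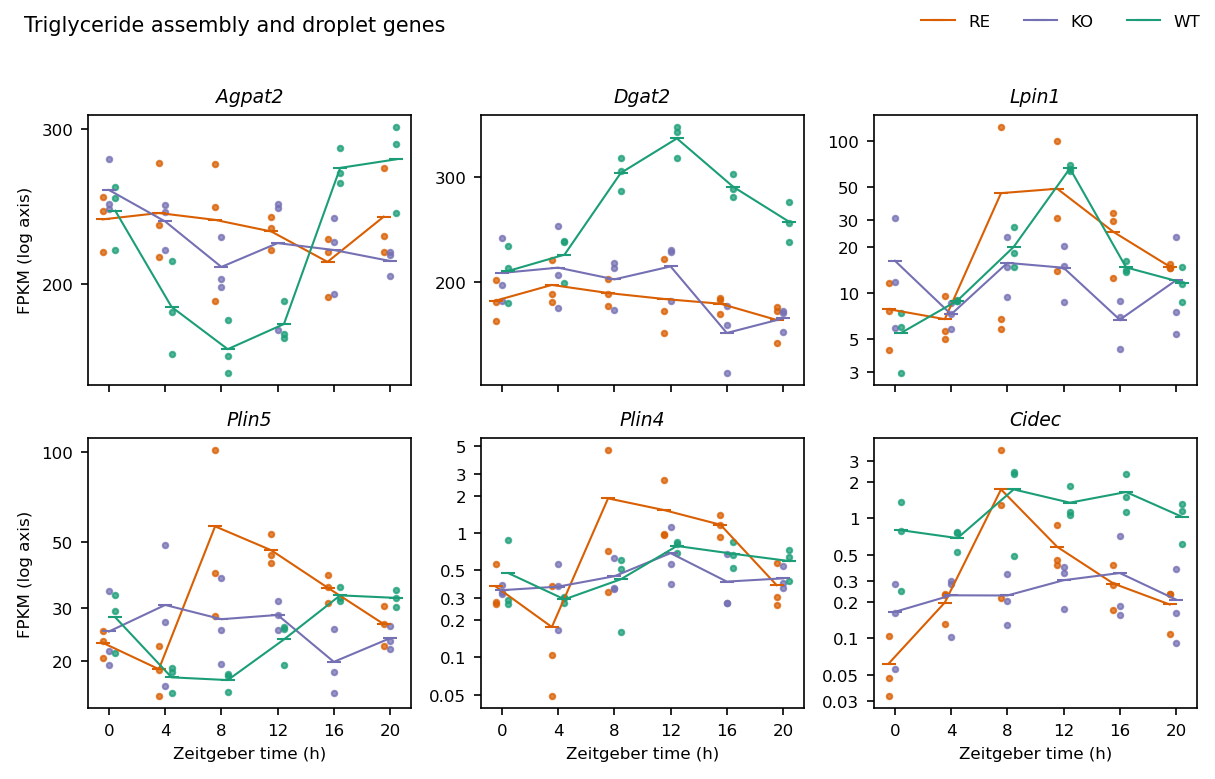
FPKM (y axes, log scale) against zeitgeber time in h (x axes) for 6 genes of triglyceride assembly and lipid droplets in RE, KO and WT livers; dots are single livers and dashes joined by lines are means of 3 livers. WT means of Agpat2, Dgat2 and Lpin1 swing over the day, Plin5 in RE is highest at ZT8 and ZT12, and liver 2 of RE at ZT8 is the highest dot for Lpin1, Plin5, Plin4 and Cidec.

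The droplet genes were led by Plin5, a perilipin that ties droplets to mitochondria. It had 53.0, 42.4 and 45.3 FPKM in RE livers at ZT12 and 18.6, 15.3 and 22.4 at ZT4, and 28.4, 31.7 and 25.4 at ZT12 and 27.1, 48.7 and 16.5 at ZT4 in KO livers. In WT livers it had 25.9, 19.3 and 25.5 at ZT12 and 15.6, 18.9 and 18.4 at ZT4. All RE livers were above all KO and WT livers at ZT12. The peak was ZT12.0 in RE and ZT18.6 in WT, 6.51 h earlier in RE (SE 1.13), and the difference 0.86 (SE 0.17, adjusted p 0.00125). Plin4 and Cidec, a perilipin and a protein of droplet fusion, cycled in RE at ZT12.2 and ZT9.67, at low levels of at most 4.65 and 3.70 FPKM, with no called difference from WT (adjusted p 0.118 and 0.277). Plin4 had 2.65, 0.978 and 0.955 FPKM in RE livers at ZT12 and 0.0489, 0.104 and 0.373 at ZT4, against 0.848, 0.814 and 0.696 at ZT12 and 0.303, 0.275 and 0.300 at ZT4 in WT livers. The 3 RE livers at ZT12 lay above the 3 WT livers, and at ZT4 the genotypes overlapped. The difference of Plin4 between RE and WT was called at neither time. Plin4 and Plin5 are 1649 bases apart on chromosome 17.

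Liver 2 of RE at ZT8 was the highest of the 18 RE livers for Lpin1, Lpin2, Plin5, Plin4, Cidec, Elovl2 and Elovl5. In it Plin5 had 101 FPKM, Plin4 4.65 and Cidec 3.70. The summed level of 7 adipocyte markers was also the highest there, at 70.6 FPKM, against 18.4 to 70.6 over RE livers, 15.9 to 45.5 over KO livers and 15.9 to 31.2 over WT livers. Most of that sum was Fabp4, at 50.1 FPKM, with Cfd at 8.35, Lipe at 5.97, Retn at 2.03, Plin1 at 0.525 and Lep at 0.0128. Adipoq stood at 3.65 FPKM in that liver, whereas it reached 0.193 in KO livers and 0.268 in WT livers. The part of such cells in the values was not tested. Without that liver the RE rhythms kept their calls at 0.56 for Plin5 (adjusted p 9.52e-05), 0.49 for Plin4 (adjusted p 1.24e-05) and 0.31 for Cidec (adjusted p 0.0301), and the Plin5 difference from WT was 0.70 (adjusted p 0.0019). Without liver 0 of RE at ZT8, the differences of Plin4 and Cidec passed (adjusted p 0.0201 and 0.0336).

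Pnpla3, a droplet enzyme regulated by SREBP-1, ranged from 0.0268 to 1.63 FPKM in RE livers, from 0.00819 to 0.647 in KO livers and from 0.232 to 12.1 in WT livers. It had 0.0451, 0.153 and 0.481 FPKM in RE livers at ZT16 and 0.0493, 0.0521 and 0.0268 at ZT12, against 4.42, 3.41 and 7.27 at ZT16 and 0.329, 1.54 and 0.794 at ZT12 in WT livers. RE and WT did not overlap at either time, and the difference was called at ZT16 and not at ZT12. It cycled in WT (0.85, peak ZT19.0, adjusted p 0.000108) and not in RE (0.22, adjusted p 0.411). The difference missed the threshold (0.66, adjusted p 0.0726) and passed without liver 1 of WT at ZT8, liver 0 of WT at ZT20 or liver 0 of RE at ZT20, with adjusted p down to 0.0114.

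Set against WT at each time, RE livers differed most in the hours around dusk. The counts of genes called lower in RE were 6 of 35 at ZT0 (4.82% of all tested genes), 3 at ZT4 (2.75%), 13 at ZT8 (6.46%), 16 at ZT12 (9.26%), 18 at ZT16 (9.45%) and 6 at ZT20 (4.82%). Called higher in RE were 2 at ZT8 (6.96% of all tested genes) and 2 at ZT12 (9.62%), Agpat2 and Plin5 each time. At the other times 4.56% (ZT0), 4.91% (ZT4), 9.29% (ZT16) and 6.8% (ZT20) of all tested genes were called higher. Counting both directions, 9.39%, 7.67%, 13.4%, 18.9%, 18.7% and 11.6% of all tested genes were called at the 6 times in order. The median difference over the 35 genes was -0.163 (log2) at ZT0, -0.168 at ZT4, -0.451 at ZT8, -0.875 at ZT12, -0.652 at ZT16 and -0.217 at ZT20. On the log2(FPKM + 1) scale of all these differences, which understates low genes such as Pnpla3, the largest at ZT12 were Scd1 at -2.79 (SE 0.49, 0.144 times the WT value on that scale), Elovl6 at -2.77 (SE 0.40, 0.147 times), Fasn at -2.65 (SE 0.47, 0.159 times), Thrsp at -2.61 (SE 0.60, 0.164 times) and Mid1ip1 at -2.37 (SE 0.37, 0.193 times). Srebf1 was at -2.13 (SE 0.39, 0.228 times). Plin5 was higher in RE by 1.44 at ZT8 (SE 0.29, 2.72 times) and by 0.97 at ZT12 (SE 0.29, 1.95 times).

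Scd1 was called lower in RE at all 6 times, the call at ZT4 (adjusted p 0.0498) being lost in 37 of 54 leave-one-out fits. Called were also Fads2 and Me1 at 5 times, and Fads1, Dgat2 and Pklr at 4. Srebf1, Acly, Aacs, Fasn, Thrsp, Mid1ip1 and Elovl6 were called at ZT8, ZT12 and ZT16 and at no other time. Of the 66 calls at single times, 42 were kept in each leave-one-out fit. The count at ZT4 was 1 without liver 0 or without liver 2 of WT at ZT4.

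**Figure D4:**
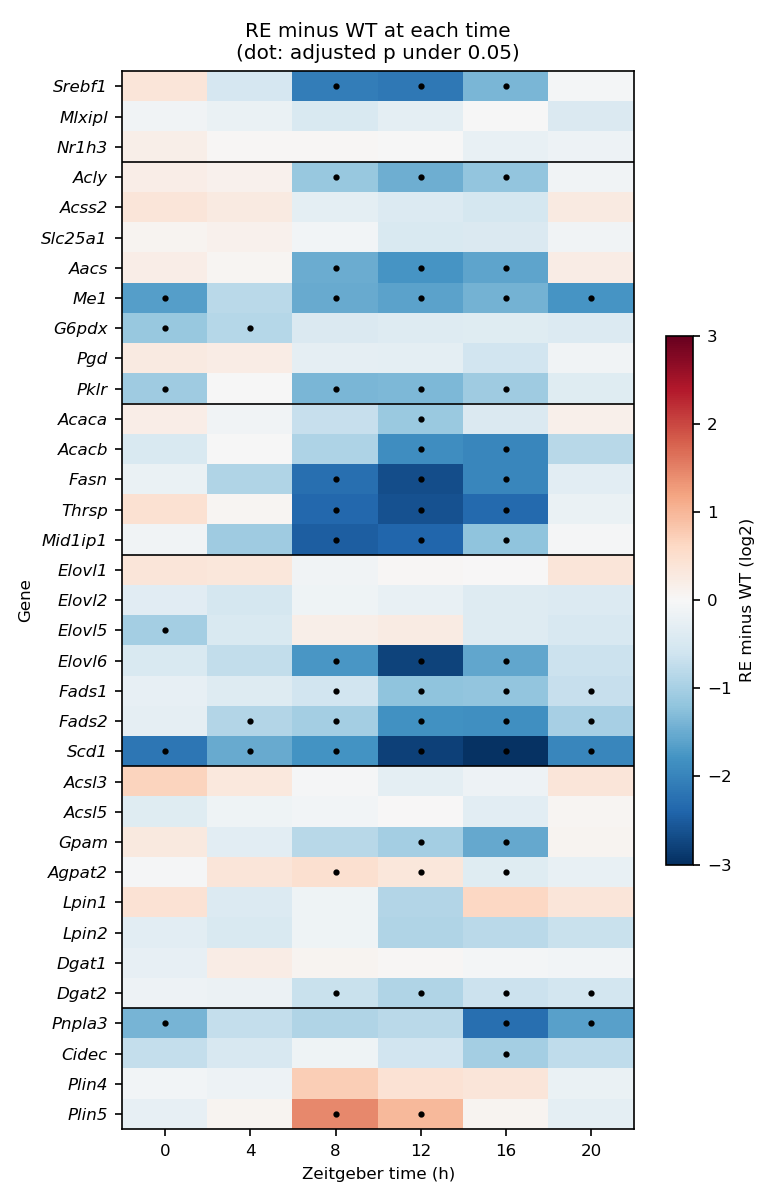
Difference RE minus WT (colour, log2, blue lower and red higher in RE) for the 35 genes (rows, with lines between roles) at each zeitgeber time in h (columns); dots mark an adjusted p under 0.05. The dots gather at ZT8, ZT12 and ZT16, where 15, 18 and 18 genes were called.

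Averaged over the day, 23 of the 35 genes were lower in RE than in WT livers and 17 were lower in KO than in WT livers. The level, the mean over the 6 times, was lower in RE than in WT in 23 of 35 genes, where 21.7% of all tested genes were lower, and higher in 1, Plin5 (0.34, SE 0.12, adjusted p 0.0166), where 24.2% were higher and 45.9% were called in either direction. It was lower in KO than in WT in 17 of 35, where 20.2% of all tested genes were lower, and higher in 2, Elovl1 and Acsl3, where 22.1% were higher. The median difference over the 35 genes was -0.551 (log2) for RE and -0.404 for KO, against 0.01 for RE and 0.00125 for KO over all tested genes. Both comparisons use the same WT livers. By role, lower in RE were 2 of 3 transcription factors, 5 of 8 supply genes, 5 of 5 synthesis genes, 6 of 7 of elongation and desaturation, 3 of 8 of assembly and 2 of 4 droplet genes.

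On the log2(FPKM + 1) scale Scd1 had the largest fall, by 2.20 in RE (SE 0.20, adjusted p 6.33e-12, 0.218 times the WT level on that scale) and by 1.32 in KO (SE 0.20, adjusted p 9.05e-07, 0.4 times). Its 18 livers ran from 276 to 1951 FPKM in RE with a median of 722, from 654 to 3789 in KO with a median of 1080, and from 1817 to 4974 in WT with a median of 3018. Fasn was lower by 1.38 in RE and 0.93 in KO, Elovl6 by 1.32 and 0.95, Fads2 by 1.14 and 0.99, and Pnpla3 by 1.29 and 1.30. In plain FPKM Pnpla3 was the further apart, with medians of 0.123 in RE, 0.148 in KO and 1.78 in WT livers. Srebf1 was lower by 0.96 in RE (SE 0.16, 0.512 times) and 0.66 in KO (SE 0.16, 0.635 times), and Dgat2 by 0.52 and 0.46. Thrsp was lower by 1.16 in RE and 1.21 in KO. Levels of Lpin1, Plin4, Dgat1, Nr1h3, Acss2, Slc25a1, Pgd, Agpat2 and Acsl5 passed no test against WT in either genotype. All 24 level calls of RE were kept in each leave-one-out fit. The 2 rises in KO were not: Elovl1 (0.19, adjusted p 0.0474) lost its call in 26 of 54 and Acsl3 (0.31, adjusted p 0.0365) in 16 of 54, with adjusted p up to 0.0946 and 0.0737.

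Among the marker lists for other cells, the summed level of 7 exocrine pancreas markers ran from 38.6 to 115 FPKM in RE livers, 31.0 to 87.9 in KO livers and 16.9 to 33.0 in WT livers. Most of it was Cela1, while Prss2, Cpa1, Pnlip and Ctrb1 were at or below 0.351 FPKM and Amy2a5 was listed at 0 in every library. Of the 7, 2 reached a mean of 1 FPKM in RE livers, Cela1 and Cela2a, and 1 each in KO and WT livers. The other lists overlapped between genotypes in their summed levels, and some of their medians differed. The 5 bile duct markers had a median sum of 64.3 FPKM in RE livers (20.7 to 149), 68.9 in KO livers (26.0 to 172) and 27.5 in WT livers (18.1 to 127), where liver 0 at ZT4 held the 127 and the next highest 44.6. The Kupffer cell markers had a median of 45.7 FPKM in RE livers (26.8 to 112), 61.3 in KO livers (35.6 to 129) and 73.0 in WT livers (56.5 to 128). The 8 gut epithelium markers summed to 173.7 to 419.5 FPKM in WT livers, 100.1 to 404.2 in RE livers and 122.2 to 295.2 in KO livers. Of the 8, 4 reached a mean of 1 FPKM in WT livers and 3 each in RE and KO livers. In WT livers Vil1 reached 3.43 FPKM and Krt20 3.35, so other genes of the list made up most of the sum. The part of such cells in the levels was not tested.

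**Figure D5:**
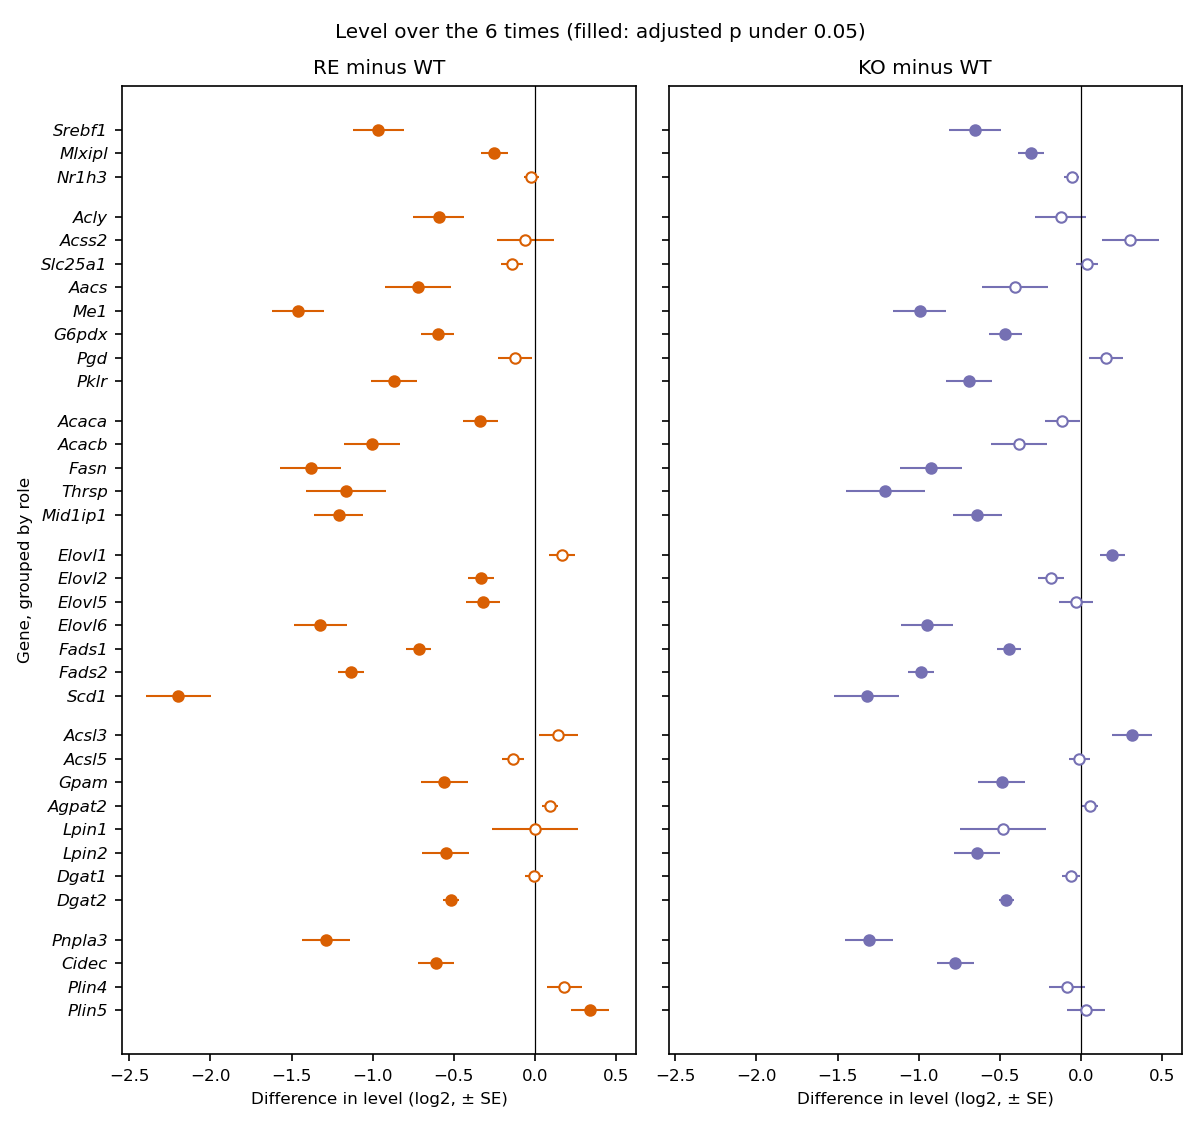
Difference in level (x axes, log2, mean over the 6 times) of RE minus WT (left) and KO minus WT (right) for the 35 genes (y axis, grouped by role); bars are SEs and filled points have an adjusted p under 0.05. In RE 23 filled points lie left of 0 and 1 lies right of it, and in KO 17 lie left and 2 lie right.

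KO livers differed from WT in the rhythm of 7 of 35 genes, where 9.06% of all tested genes were called. These were Dgat2 (0.42, adjusted p 9.80e-05), Agpat2 (0.39, adjusted p 0.000554), Elovl5 (0.67, adjusted p 0.0074), Pnpla3 (0.91, adjusted p 0.0102), Plin5 (0.70, adjusted p 0.0122), G6pdx (0.57, adjusted p 0.0213) and Acsl5 (0.35, adjusted p 0.0281). G6pdx had 1.16, 1.14 and 1.66 FPKM in KO livers at ZT0 and 1.66, 1.83 and 1.56 at ZT12, against 5.27, 3.87 and 3.52 at ZT0 and 1.81, 1.90 and 1.10 at ZT12 in WT livers. The KO and WT livers were apart at ZT0 and overlapped at ZT12. The call of G6pdx was lost without liver 0 of WT at ZT0 or liver 2 of WT at ZT12 (adjusted p 0.0513 and 0.0537), and that of Acsl5 without liver 1 of KO at ZT0 or ZT4 or liver 2 of WT or KO at ZT12 (adjusted p 0.0524 to 0.0756). Lpin1 in KO had a fitted amplitude of 0.21, and its difference from WT just missed the threshold (1.30, adjusted p 0.0572).

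RE and KO livers are both meant to lack Bmal1 in the liver, and their comparison asks what the rescue in the brain changes. The rhythm differed in 6 of 35 genes, where 3.07% of all tested genes were called, namely Acly (1.32, SE 0.22, adjusted p 0.00471), Gpam (1.10, adjusted p 0.0109), Mid1ip1 (1.09, adjusted p 0.0143), Fasn (1.32, adjusted p 0.0177), Acacb (1.19, adjusted p 0.0177) and Pgd (0.69, adjusted p 0.0224). Acly had 32.1, 50.1 and 33.8 FPKM in RE livers at ZT12, against 131, 105 and 194 in KO livers. The 3 RE livers lay below the 3 KO livers. At ZT4 it had 188, 98.5 and 105 FPKM in RE livers, against 67.8, 39.4 and 128 in KO livers, and there the genotypes overlapped. Fitted with limma on RE and KO livers alone, 0 of 35 genes and 2 of all tested genes passed, and in the fit on all livers 23 of the 35 and 2579 of all 10932 tested genes had an unadjusted p under 0.05. The count rose to between 10 and 14 when 1 of 7 livers was left out, which were liver 1 of RE at ZT0, liver 2 of KO at ZT4, ZT8 or ZT16, liver 0 or 2 of RE at ZT8 and liver 1 of RE at ZT16. Over all tested genes the count, 336 with all livers, ran from 145 to 686 in the 54 leave-one-out fits. Pgd lost its call without liver 1 of KO at ZT0 (adjusted p 0.0511). In level, 1 of 35 genes differed, Scd1, lower in RE than in KO by 0.87 (SE 0.20, adjusted p 0.0475), where 0.192% of all tested genes differed in either direction, 0.119% lower and 0.0732% higher in RE. It lost that call in 38 of 54 leave-one-out fits, with adjusted p up to 0.118.

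The pathway genes varied more between livers of a group than most genes did. The median SD within a group (log2) was 0.42 in RE, 0.41 in KO and 0.26 in WT for the 35 genes, and 0.20 in RE, 0.17 in KO and 0.13 in WT for all tested genes. The SD was higher in RE than in WT for 33 of 35 genes, and higher in KO than in WT for 32 of 35. That count was not made over all tested genes, whose median SD was also higher in RE and KO than in WT. It therefore does not show a trait of the pathway. In Lpin1 it was 1.20 in RE, 0.74 in KO and 0.33 in WT, and in Thrsp 0.88 in RE, 0.92 in KO and 0.38 in WT. In some livers the deviations ran through many of the 35 genes at once. This was not counted over all tested genes, so it may hold for the whole library. Liver 1 of KO was the lowest of its group for 24 of 35 genes at ZT0 and for 24 at ZT4. Liver 2 of KO at ZT8 was the lowest of its group for 22 of 35 genes, with a median deviation of -0.392 (log2) from the group mean, and liver 2 of WT at ZT8 for 25, with a median deviation of -0.276. Liver 0 of RE at ZT20 was the highest of its group for 23, with a median deviation of 0.245. It was also the highest of all RE livers for Acly, Acss2, G6pdx, Pgd, Pklr, Acacb, Fasn, Thrsp, Elovl6, Scd1, Acsl5, Gpam and Pnpla3. Of the 26 rhythm calls in RE, 24 were kept in every leave-one-out fit, and those of Mlxipl and Elovl6 were not.

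Other genes of the pathway were taken from 3 lists. Of 18 genes that control SREBP and its partners, 12 cycled in RE (66.7%, against 46.8% of all tested genes) and 10 in WT (55.6%, against 34.8%), and 4 differed in rhythm between RE and WT (22.2%, against 14.1%). Insig2, which holds the SREBP complex in the endoplasmic reticulum, cycled in WT (1.26, peak ZT22.9) and weakly in RE (0.30, peak ZT9.76), a difference of 1.56 (SE 0.13, adjusted p 7.51e-11). Its level was higher in RE by 1.51 and in KO by 1.23. Insig1, which has the same role and is itself an SREBP target, peaked at ZT22 in RE (0.92) and ZT19.0 in WT (0.47), differing by 0.67 (adjusted p 0.0123). Scap, the escort of SREBP, cycled alike in RE (0.56, peak ZT4.75) and WT (0.44, peak ZT4.88). In level, 3 of the 18 were higher in RE than in WT (16.7%, against 24.2% of all tested genes) and 4 lower (22.2%, against 21.7%). Irs2, an adaptor of the insulin receptor, was higher by 0.92 in RE (adjusted p 1.40e-05).

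Of 24 other enzymes of acyl chains and NADPH, 21 were tested, of which 13 cycled in RE (61.9%), 6 in WT (28.6%), and 7 differed in rhythm between RE and WT (33.3%), against the same shares of all tested genes, 46.8% in RE, 34.8% in WT and 14.1% for the difference. Elovl3, an elongase of very long chains, cycled in WT (1.83, peak ZT22.8) and differed in RE by 2.05 (adjusted p 9.14e-07). It was higher in level by 1.69 in RE and 1.29 in KO. Scd2, the relative of Scd1 that shares sequence with it, was higher by 1.33 in RE and 1.91 in KO. In level, 6 of the 21 were higher and 6 lower in RE (28.6% each), near the 24.2% and 21.7% of all tested genes. Of 28 other glycerolipid enzymes and droplet proteins, 21 were tested, of which 17 cycled in RE (81%) and 13 in WT (61.9%). The rhythm differed in 4 (19%, against 14.1% of all tested genes), namely Plin2 (0.77), Hilpda (0.56), Lipe (0.42) and Gpd1 (0.37). Plin2, the main perilipin of hepatocytes, peaked at ZT7.63 in RE and ZT1.23 in WT. Pnpla2, adipose triglyceride lipase, peaked at ZT8.60 in RE and ZT8.79 in WT. Fitm1, a protein of droplet formation, was lower by 2.37 in RE and 2.47 in KO. In level, 7 of the 21 were higher in RE than in WT (33.3%, against 24.2% of all tested genes) and 10 lower (47.6%, against 21.7%).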

How the data were processed

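Values are FPKM per gene symbol for 54 mouse liver libraries, as the authors deposited them in 1 table. The submitters' processing notes name TopHat, a spliced aligner, and the build mm10. The TopHat version, the program that made the FPKM and its annotation are stated nowhere in the material used here. FPKM hold no counts, so depth per library is unknown and no counting error is given. Column names give genotype, time and a number that does not match the sample titles' numbers, so columns were assigned to groups and not to single samples. No source says that the 3 livers of a group are from separate animals, so p-values measure the spread between these samples, which may be technical.

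Of 24346 genes, the 10932 whose group mean reached 1 FPKM in 1 or more of 18 groups were tested, on log2(FPKM + 1) with limma 3.58.1 in R 4.3.3. Differences and fold changes are on that scale, which understates changes of low genes. All 54 libraries entered 1 fit with a mean per group, a trended prior variance and 36 residual degrees of freedom. A rhythm was tested by the moderated F test of 24 h cosine and sine contrasts over 6 times. The rhythm difference is the length of the difference of these contrasts between genotypes. Levels were compared as means over the 6 times, and genotypes at each time. The Benjamini-Hochberg adjustment ran over all tested genes, with calls at adjusted p under 0.05. The tests of the RE rhythm and of the RE minus WT level were run on simulated data with known changes. That simulation used independent noise with 1 spread per gene for all genotypes. It cannot show how the tests behave where the spread differs between genotypes or deviations are shared by many genes, as here. Figures were drawn with Python 3.11.15 and matplotlib 3.10.9.

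Members and lists were chosen with earlier results of these data known. All 35 genes are named. Values per liver were to be given for 8 fixed genes, Srebf1, Mlxipl, Acly, Acaca, Fasn, Scd1, Gpam and Dgat2, and for up to 3 per role with the smallest adjusted p in the rhythm difference of RE and WT. Those of Acacb, Lpin1 and G6pdx were added after their values were seen, as were all peak windows. Other pathway genes were named as up to 4 per list with the smallest adjusted p in a comparison. Promoters and gene positions are from RefSeq (GRCm38.p6). Alternatives were filters, pseudocount, scaling, variance models, library weights, separate fits, the shape of the rhythm and leaving out each library.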

Additional observations from a re-analysis of the deposited data

Results flagged for a closer look

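The rhythm of these genes differed between genotypes by a test of the difference of their 24 h contrasts (limma, adjusted over all tested genes), and each is given by the size of that difference on the log2 scale. Between RE and WT it was 1.35 for Srebf1, 0.954 for Acly, 1.22 for Aacs, 0.653 for Acaca, 0.972 for Acacb, 1.34 for Fasn, 1.78 for Thrsp, 1.36 for Mid1ip1 and 1.09 for Elovl6. In the same comparison it was 0.574 for Elovl5, 0.507 for Fads1, 0.731 for Fads2, 0.79 for Gpam, 0.423 for Agpat2, 0.363 for Dgat2 and 0.856 for Plin5. Between KO and WT it was 0.575 for G6pdx, 0.666 for Elovl5, 0.354 for Acsl5, 0.391 for Agpat2, 0.418 for Dgat2, 0.91 for Pnpla3 and 0.703 for Plin5. Between RE and KO it was 1.32 for Acly, 0.693 for Pgd, 1.19 for Acacb, 1.32 for Fasn, 1.09 for Mid1ip1 and 1.1 for Gpam. The comparisons with WT share its 18 livers. With 3 livers per group, no single liver was tested as an outlier.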

How the results depend on the processing

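Counts below are of the 35 genes, and no direction reversed under any alternative. Counts over all tested genes are not set beside them here, so they do not show whether other genes moved alike. With library weights, 29 cycled in WT and 4 in KO, the rhythm differed in 12 between KO and WT and in 20 between RE and KO, the level differed in 8 between RE and KO, and 6 were called at ZT4 between RE and WT. With a test of all differences between the 6 times, 11 cycled in WT, and the rhythm differed in 10 between RE and WT, 2 between KO and WT and 1 between RE and KO. Rhythms in RE numbered 22 to 28 over the alternatives other than leave-one-out. Between RE and KO, the rhythm differed in 11 with a filter at 5 FPKM and in 0 with the libraries of both genotypes alone. The level of Scd1 between RE and KO lost its call, leaving 0, with no filter, with those libraries alone and with a robust prior. The cause of these changes was not tested.

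Leaving out each library gave 24 to 28 rhythms in RE, 0 in KO and 14 to 20 in WT, rhythm differences of 15 to 19 between RE and WT, 6 to 8 between KO and WT and 5 to 14 between RE and KO, and level differences of 24 to 27, 17 to 20 and 0 to 4 for the same pairs. At single times it gave 4 to 7 at ZT0, 1 to 4 at ZT4, 10 to 16 at ZT8, 16 to 20 at ZT12, 12 to 18 at ZT16 and 5 to 7 at ZT20. No paired analysis was possible because the numbers of the columns are not those of the sample titles and neither names a shared animal, litter or day. Depth is unknown, so how far counting error limits low genes such as Pnpla3, Plin4 and Cidec cannot be given.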
